A study of Mus musculus with 10 samples.

Results

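The genes described here are 35 genes of adipocyte lipid storage, fatty acid oxidation and adipokine secretion, taken from a fixed list by gene symbol. On the Affymetrix mg_u74av2 array, 41 probe sets carried the symbols of 29 of them, out of 12422 probe sets that were not controls. Another 4 control probe sets measure Pcx and are treated apart. Plin1, Cfd, Acsl1, Dgat2, Adrb3 and Cpt1b had no probe set under their symbols in the annotation used and were not analysed here. Of the 41 probe sets, 36 (27 genes) exceeded a floor on low intensities in at least 2 arrays and were tested. Pparg and Cd36 did not.

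The 10 arrays each measured total RNA of mammary tumours from adult female mice aged 90 days, in a series on mice with the MMTV-PyMT transgene. The transgene puts the middle T oncogene of polyomavirus under a viral promoter that is active in mammary epithelium, where it causes tumours. The titles name a strain for 9 arrays, with 1 array (lettered B) for FVBn and a pair of arrays, A and B, for each of ILn, LP, MOLF and NZB. The strain label reads FVB/Nj for all 10 arrays, so these groups rest on the titles, which call each of the 9 samples a mix without saying what was mixed. Whether the A and B arrays of a strain hold different animals is not stated, so the p-values cover the spread between arrays alone, and that spread may be technical. The remaining array, whose title gives no strain, was kept out of every group and test.

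White adipocytes take up fatty acids that lipoprotein lipase frees from circulating lipoproteins, bind them with fatty acid binding proteins, and store them as triglyceride in a droplet. Lipases break the droplet down again, and the fatty acids that are released can be oxidised in mitochondria, strongly so in brown adipocytes, where Ucp1 turns the energy into heat. The program depends on the nuclear receptor Pparg and on C/EBP factors. In the mammary gland the ducts lie within a pad of such fat, so that a tumour sample can hold more or less of it. Several of the genes are not confined to fat: Slc2a4, Car3, Lpl and Cd36 are also genes of skeletal muscle, and Agt is strongly expressed in liver.

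Measurements are quantile normalized intensity on the log2 scale, on which 1 unit is a doubling and the floor is 4.75. Levels of different genes are not compared, since probe sets differ in brightness. The epithelial markers Krt8 (10.81 to 11.38) and Krt18 (10.18 to 11.06) were bright on all 9 strain arrays, while the basal keratins Krt5 and Krt14 lay at the floor on all 10. MOLF A and NZB B were the least like the rest of the strain arrays. They correlated with their own partners at 0.868 and 0.852 across tested probe sets, against 0.974 for the ILn pair and 0.961 for the LP pair. Each correlated best with the other, at 0.927, although their strain names and title dates differ. The 2 arrays thus share a pattern that enters both the MOLF and the NZB means, and its source was not tested. The log2 ratio of 3' to 5' actin signal, a sign of RNA integrity, lay between 0.22 and 0.28 for FVBn and ILn, between 0.60 and 1.12 for the other 3 strains, and at 0.41 for the array with no strain name. In bulk tissue, fewer adipocytes and less adipocyte RNA per cell cannot be told apart.

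The promoters of 22 of the 35 genes were found in a RefSeq table (GRCm38.p6), in 29 windows of 300 bases that run from 250 bases before the start of transcription to 50 after it. Those of 4 genes are shown. Agt had the largest difference between strain names. Adipoq, Aqp7 and Cd36 read higher on the remaining array than on any strain array, as did 25 of the 29 measured genes. Aqp7 and Cd36 are also the only ones of the 22 genes with a match to the direct repeat defined below. The printed promoters therefore do not represent the genes that read higher there. Each promoter is printed in the direction of transcription. Capitals mark matches, on either strand, to the direct repeat AGGTCANAGGTCA with at most 2 mismatches (the kind of element that Pparg binds with its partner), to TATAAA and to CCAAT.
Adipoq, chr16:23146286-23146585, plus strand: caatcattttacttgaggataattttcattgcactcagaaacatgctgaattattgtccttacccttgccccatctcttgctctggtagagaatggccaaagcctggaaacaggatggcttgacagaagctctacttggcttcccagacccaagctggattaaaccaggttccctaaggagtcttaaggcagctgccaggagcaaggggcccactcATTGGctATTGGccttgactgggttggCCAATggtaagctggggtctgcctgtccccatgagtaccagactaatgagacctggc
Aqp7, chr4:41048087-41048386, minus strand: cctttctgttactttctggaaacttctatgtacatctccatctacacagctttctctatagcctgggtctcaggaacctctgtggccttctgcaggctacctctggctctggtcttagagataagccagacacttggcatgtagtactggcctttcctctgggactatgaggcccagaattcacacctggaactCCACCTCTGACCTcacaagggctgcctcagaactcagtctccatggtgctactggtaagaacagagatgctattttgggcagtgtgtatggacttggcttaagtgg
Cd36, chr5:17835847-17836146, minus strand: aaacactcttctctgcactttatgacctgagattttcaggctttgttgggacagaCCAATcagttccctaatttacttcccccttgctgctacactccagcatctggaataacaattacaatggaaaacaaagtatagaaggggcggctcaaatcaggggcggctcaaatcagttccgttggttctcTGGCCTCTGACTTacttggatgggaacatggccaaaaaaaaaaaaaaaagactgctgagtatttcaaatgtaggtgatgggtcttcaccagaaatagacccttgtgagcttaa
Agt, chr8:124569657-124569956, minus strand: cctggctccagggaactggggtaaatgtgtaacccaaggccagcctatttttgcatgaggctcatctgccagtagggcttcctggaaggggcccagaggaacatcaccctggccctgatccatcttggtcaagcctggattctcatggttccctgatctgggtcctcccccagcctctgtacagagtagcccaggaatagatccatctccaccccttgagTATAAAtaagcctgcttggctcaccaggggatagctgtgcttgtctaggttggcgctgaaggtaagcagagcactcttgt
The direct repeat was matched in 3 of the 29 windows (10.3%), against 3.86% of 32851 windows in the table, and those 3 belong to Cd36 and to 2 overlapping windows of Aqp7. TATAAA was present in 17.2% of the 29 windows, among them Agt, and in 13.6% of all windows. CCAAT was present in 31% (3 matches in Adipoq) and in 37.4% of all. TTGCNNAA, a short form of a C/EBP element that is not marked in the printed sequences, was present in 13.8% and in 10.8%. These are matches of letters, and binding was not measured.

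No adipocyte gene passed the test in any of 6 comparisons between strain names. In limma, with Benjamini-Hochberg adjustment over 9899 probe sets at a threshold of 0.05, 0 of 36 probe sets passed the F test over ILn, LP, MOLF and NZB, against 0.748% of all probe sets. The count was also 0 for each of these strains against the mean of the other 3, where 0.404% of all probe sets passed for ILn, 0.313% for LP, 0.414% for MOLF and 0.101% for NZB. For the mean of the 4 strains against the FVBn array it was 0, against 0.313%. At an unadjusted p under 0.05 the counts were 6 of 36 for the F test (7.9% of all probe sets), 4 for ILn (7.11%), 5 for LP (5.69%), 4 for MOLF (6.42%), 4 for NZB (8.4%) and 3 against FVBn (3.41%). The 4 for ILn include Rbp4, which entered the test only through the ILn arrays. These tests do not show that the strains have equal levels. The standard errors below give the precision of each difference.

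**Figure D1:**
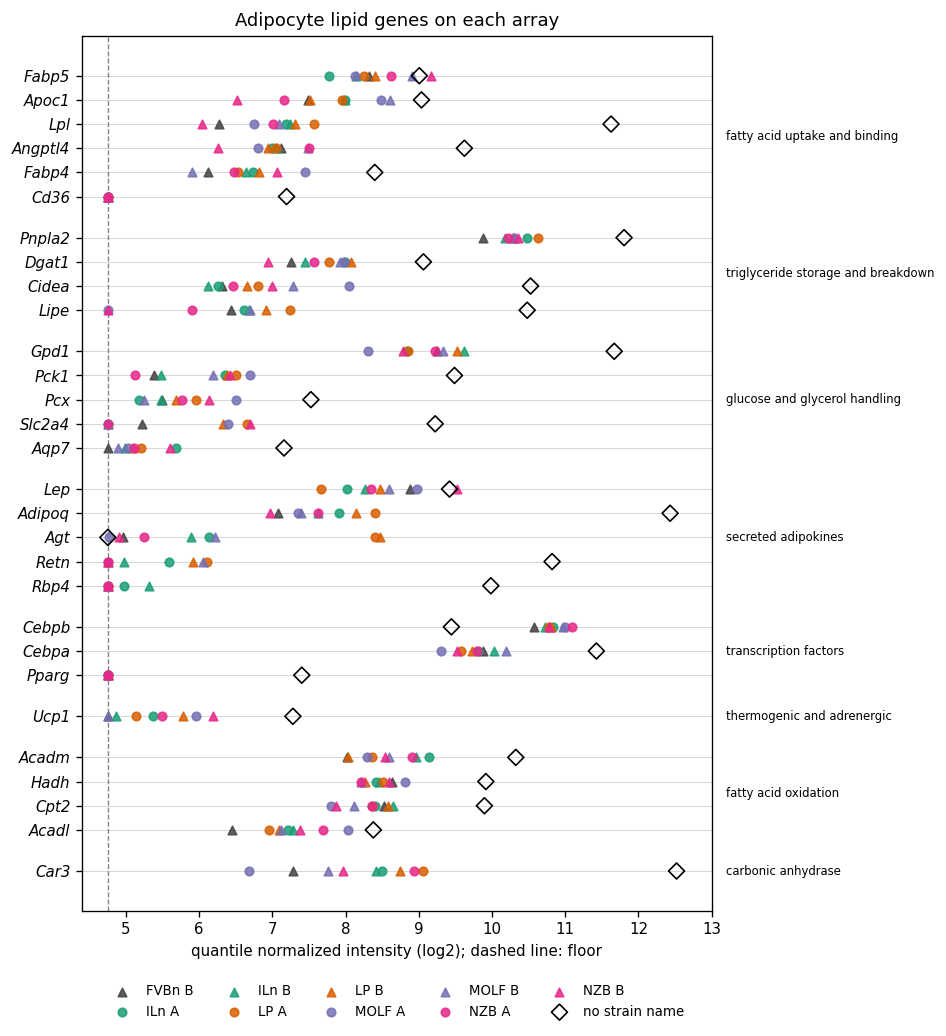
Quantile normalized log2 intensity (x axis) of the 29 measured genes (rows, grouped by role) on each array: circles are arrays lettered A, triangles arrays lettered B, colours the strain names, open diamonds the array with no strain name, and the dashed line the floor of 4.75. Diamonds lie to the right of every strain array for 25 of the 29 genes, while the strain arrays themselves overlap in most rows.

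Among the secreted factors, Agt had the largest difference in the list. Agt encodes angiotensinogen, the precursor of the angiotensins, which fat and liver secrete. It measured 8.40 on LP A and 8.47 on LP B, 6.14 and 5.89 in ILn, 4.77 and 6.22 in MOLF, 5.24 and 4.91 in NZB, and 4.97 in FVBn. The LP arrays lay above all the others, and no other strain reached within 2 log2 units of them. LP exceeded the average of the other 3 strains by 7.49-fold (a log2 difference of 2.90, SE 0.418), with an adjusted p of 0.0532 in limma that narrowly missed the threshold. Over the alternatives the adjusted p ran from 0.0267 to 0.72. It passed with the stricter filter on dim probe sets (adjusted p = 0.0267) and without MOLF B (0.0481). Otherwise it was 0.304 with the title date as a block, and it was 0.0891 without MOLF A and NZB B, where the difference was 2.61. Within the batch of 5 arrays that share a title date the difference was 2.68, and in the batch of LP A and MOLF A it was 3.63. The array with no strain name read at the floor for Agt, so this gene did not follow Adipoq and Retn there.

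Adipoq, which encodes the hormone adiponectin and is made almost only by adipocytes, was also highest in LP. It measured 8.40 and 8.14 on LP A and LP B, 7.91 and 7.62 on ILn, 7.36 and 7.40 on MOLF, 7.63 and 6.97 on NZB and 7.08 on FVBn. Both LP arrays lay above all 7 others but the margin over ILn A was no larger than the gap between the LP arrays themselves. The difference of 0.79 (SE 0.242) from the mean of ILn, MOLF and NZB did not pass (adjusted p = 0.53), and it was 0.59 within the batch of 5 arrays, which holds neither MOLF A nor NZB B. Retn, the adipokine resistin, was dim: 6.11 and 5.91 on the LP arrays, 6.06 on MOLF B, 5.59 and 4.98 in ILn, and at the floor on FVBn, MOLF A and both NZB arrays (LP difference 0.87, adjusted p = 0.875).
The remaining secreted factors had other orders. Lep encodes leptin, the satiety hormone of fat, and measured 9.52 on NZB B, 8.97 on MOLF A, 8.88 on FVBn and 7.67 to 8.60 on the other 6 arrays, with the lowest value on LP A. Its second probe set was at the floor on 5 of the 9 arrays and reached at most 5.95. Rbp4, the retinol carrier, was above the floor only on ILn A (4.98) and ILn B (5.32).

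Fatty acid uptake and binding genes followed no shared order. Lpl, the lipoprotein lipase, measured 7.57 and 7.31 on the LP arrays, 7.19 and 7.24 on ILn, 6.75 and 7.09 on MOLF, 7.01 and 6.04 on NZB and 6.27 on FVBn. LP lay above the rest by less than the gap between its own arrays, and its second probe set did not separate (difference 0.20). Apoc1, a lipoprotein component that inhibits lipase, was highest on the MOLF arrays (8.49 and 8.61) and lowest on the NZB arrays (7.16 and 6.52), with 7.99 ± 0.01 (SD, n = 2) for ILn, 7.95 and 7.51 on LP and 7.48 on FVBn. Neither pair overlapped the other strains with 2 arrays. The MOLF difference was 1.03 (SE 0.236, adjusted p = 0.265) and the NZB difference was −1.25 (SE 0.236, adjusted p = 0.18), so neither passed. In the batch of 5 arrays they were 1.06 and −0.89.
Fabp4, the fatty acid binding protein typical of adipocytes, had strain means of 6.67 to 6.77, which differed by less than the gap within MOLF, where array A read 7.44 and array B 5.90. Fabp5, its epidermal relative, ranged from 7.77 on ILn A to 9.17 on NZB B. Angptl4, a secreted inhibitor of lipoprotein lipase, ranged from 6.26 to 7.50 by its main probe set, both on NZB arrays. Its other tested probe sets disagreed. The MOLF difference was −0.94 by 1 of them, with MOLF A at the floor, and 0.52 by another, and neither passed. Cd36, a fatty acid transporter, lay at the floor on all 9 arrays by both of its probe sets.

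Of the triglyceride genes, Cidea and Lipe varied most. Cidea, a lipid droplet protein prominent in brown fat, measured 8.04 and 7.29 on the MOLF arrays, 6.80 and 6.65 on LP, 6.47 and 7.00 on NZB, 6.25 and 6.12 on ILn and 6.32 on FVBn. MOLF lay above and ILn below the other strains with 2 arrays, with differences of 1.12 (SE 0.319, adjusted p = 0.434) and −0.86 (SE 0.319, adjusted p = 0.61), and the MOLF difference was 0.88 in the batch of 5 arrays. Lipe, the hormone-sensitive lipase, measured 7.25 and 6.91 on LP, 6.61 and 6.69 on ILn, 4.75 (the floor) and 6.70 on MOLF, 5.91 and 4.75 on NZB and 6.44 on FVBn. Both readings at the floor came from MOLF A and NZB B, the arrays that stood apart, and the LP difference of 1.18 (SE 0.557) had an adjusted p of 0.903. Without MOLF A and NZB B it was 0.66 (adjusted p = 0.37), and in the batch of 5 arrays 0.48.
Pnpla2, the lipase that starts droplet breakdown, was among the steadiest genes, from 9.88 on FVBn to 10.62 on LP A. Dgat1, which makes the last step of triglyceride synthesis, ranged from 6.94 on NZB B to 8.07 on LP B, and its dimmer second probe set lay at the floor on 6 of the 9 arrays.

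Among the glucose and glycerol genes, the 2 probe sets of Slc2a4 disagreed. By the brighter, Slc2a4, the insulin-responsive glucose transporter of fat and muscle, measured 6.65 and 6.32 on LP, 6.40 on MOLF A and 6.70 on NZB B, 5.23 on FVBn, and lay at the floor on both ILn arrays, MOLF B and NZB A. By the other it read 5.39 and 5.43 on NZB, 5.35 and 4.93 on MOLF and 5.43 on ILn B. ILn A, FVBn and LP A were at the floor by it, and LP B read 5.67. The LP difference was 1.13 (SE 0.594, adjusted p = 0.903 in limma) by the brighter and −0.003 by the other. By the brighter it was 1.57 in the batch of 5 arrays and 1.73 without MOLF A and NZB B. Gpd1, which supplies glycerol phosphate, ranged from 8.30 to 9.62, and Pck1, the enzyme of glyceroneogenesis, from 5.12 to 6.69. Aqp7, a glycerol channel, stayed within 4.75 to 5.69. Pcx, pyruvate carboxylase, ranged from 5.18 to 6.50, with an ILn difference of −0.55 by this probe set and of 0.85 by the second. Neither difference passed, and the 3' control probe set for the same gene ranged from 7.36 to 8.16. The other control probe sets had other orders, with the 5' one highest on MOLF A (7.15) and NZB B (7.12).

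Car3, a carbonic anhydrase abundant in fat and slow muscle, differed most after Agt and Lipe in range over the 9 arrays (2.37). It measured 9.05 and 8.75 on LP, 8.93 and 7.97 on NZB, 8.50 and 8.42 on ILn, 6.69 and 7.76 on MOLF and 7.29 on FVBn. MOLF lay below ILn, LP and NZB without overlap, at a difference of −1.38 (SE 0.347, adjusted p = 0.339), and −0.94 in the batch of 5 arrays. Skeletal muscle markers also differed between strains: of 14 tested, 6 passed as higher in LP and 6 as lower in MOLF in limma. With the title date as a block these counts were 0 and 1, and without MOLF A and NZB B they were 0 and 2. Leaving out any 1 array of the 4 pairs gave 0 to 4 for LP (0 when it was either array of LP or of ILn) and 1 to 5 for MOLF, while the median LP difference of the 14 lay between 1.69 and 1.87. With the mean of the 9 arrays as 0, the 15 measured averaged 1.41 in LP A and 1.36 in LP B, 1.03 and 0.97 in NZB, −0.26 and −0.30 in ILn, −1.23 and −1.24 in MOLF and −1.74 in FVBn, with Myh2 at the floor on every array. The myosin and troponin genes on the marker list are those of fast fibres, so slow fibres were not measured apart. The part of muscle RNA in the Car3 and Slc2a4 values was not tested.

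The transcription factors differed little. Cebpb, which acts early in adipocyte differentiation and in many other cells, ranged from 10.58 to 11.10, and Cebpa, which acts later, from 9.30 to 10.19. Pparg was at the floor on all 9 arrays. Ucp1, the uncoupling protein of brown fat, lay between the floor and 6.18 by its main probe set. Its ILn difference was −0.43 by that probe set and 0.47 by the other, and neither passed.

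Of the fatty acid oxidation genes, Hadh and Cpt2 spanned less than 1 log2 unit over the 9 arrays, and Acadm and Acadl more. Hadh, a dehydrogenase of beta-oxidation, ranged from 8.21 to 8.82, and Cpt2, which completes fatty acid entry into mitochondria, from 7.81 to 8.64. Acadm, the medium-chain acyl-CoA dehydrogenase, measured 9.14 and 8.96 on the ILn arrays, 8.91 and 8.54 on NZB, 8.30 and 8.59 on MOLF, 8.37 and 8.04 on LP and 8.02 on FVBn. ILn lay above LP, MOLF and NZB, by 0.60 on average (SE 0.182, adjusted p = 0.426), although ILn B and NZB A nearly met, and by 0.45 in the batch of 5 arrays. Acadl, the long-chain enzyme, was lowest on FVBn (6.45) and highest on MOLF A (8.03).

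**Figure D2:**
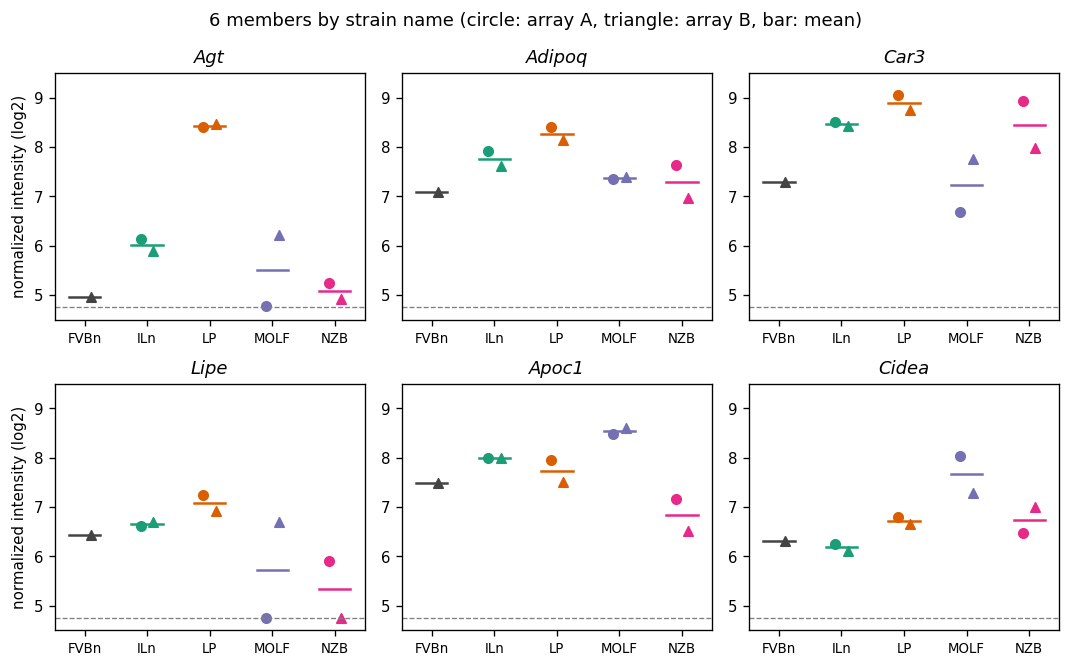
Log2 intensity (y axis) of Agt, Adipoq, Car3, Lipe, Apoc1 and Cidea by strain name (x axis), with circles for arrays A, triangles for arrays B, bars for the mean and a dashed line at the floor of 4.75. Agt separates LP (8.40 and 8.47) from all other arrays, whereas MOLF A and MOLF B differ by more than 1 log2 unit for Agt, Car3 and Lipe.

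Over the 27 tested genes the median difference was 0.01 for ILn, 0.02 for LP, −0.04 for MOLF and −0.08 for NZB, each against the mean of the other 3 strains. The median over all 7098 tested genes was between −0.005 and 0.006 in these comparisons. In LP, 14 of the 27 were above the others and 13 of 27 in MOLF. Arrays of LP did not overlap those of the other 3 strains for 4 of 36 probe sets above (Adipoq, Agt, Lipe and Lpl, against 4.47% of all probe sets) and 1 below (Acadl, 2.55%). For ILn these counts were 2 above (6.6%) and 1 below (3.77%), for MOLF 2 above (2.84%) and 1 below (3.38%), and for NZB 0 above (3.74%) and 1 below (4.24%). For ILn, 1 of the 2 above was Rbp4. It was tested only because of the 2 ILn arrays, so its lack of overlap was fixed in advance. By role, the 5 secreted factors tested had a median of 0.79 in LP, but ran from −0.55 to 2.90, with 3 of 5 above 0. In NZB their median was −0.51, from −1.57 to 0.60, with 1 of 5 above 0. The 4 oxidation genes had a median of −0.25 in LP, where the 17 other oxidation genes tested had a median of 0.15.

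The FVBn array read lower than the other strains for most of the listed genes. The mean of the 4 other strains was above it for 20 of 27 genes, with a median of 0.45 against 0.01 over all tested genes. For 26 other adipocyte genes the median was 0.04 (15 above) and for 17 other oxidation genes 0.11 (11 above). All 8 arrays of the other strains lay above FVBn for 6 of 36 probe sets (5.74% of all probe sets), namely those of Acadl, Acadm, Aqp7, Cebpb, Pnpla2 and the second of Lpl, and all lay below it for 0 (7.85%). Acadl differed by 0.90 (SE 0.383) and Pnpla2 by 0.46 (SE 0.181), with adjusted p-values of 0.999 in limma for the pair. FVBn has 1 array, which was assumed to vary like the others, and it was also the lowest in muscle markers and the highest in salivary gland markers (mean 3.22, 2.74 to 2.82 on ILn and −2.25 to −0.24 on the other 6). The part of these tissues in its values was not tested.

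**Figure D3:**
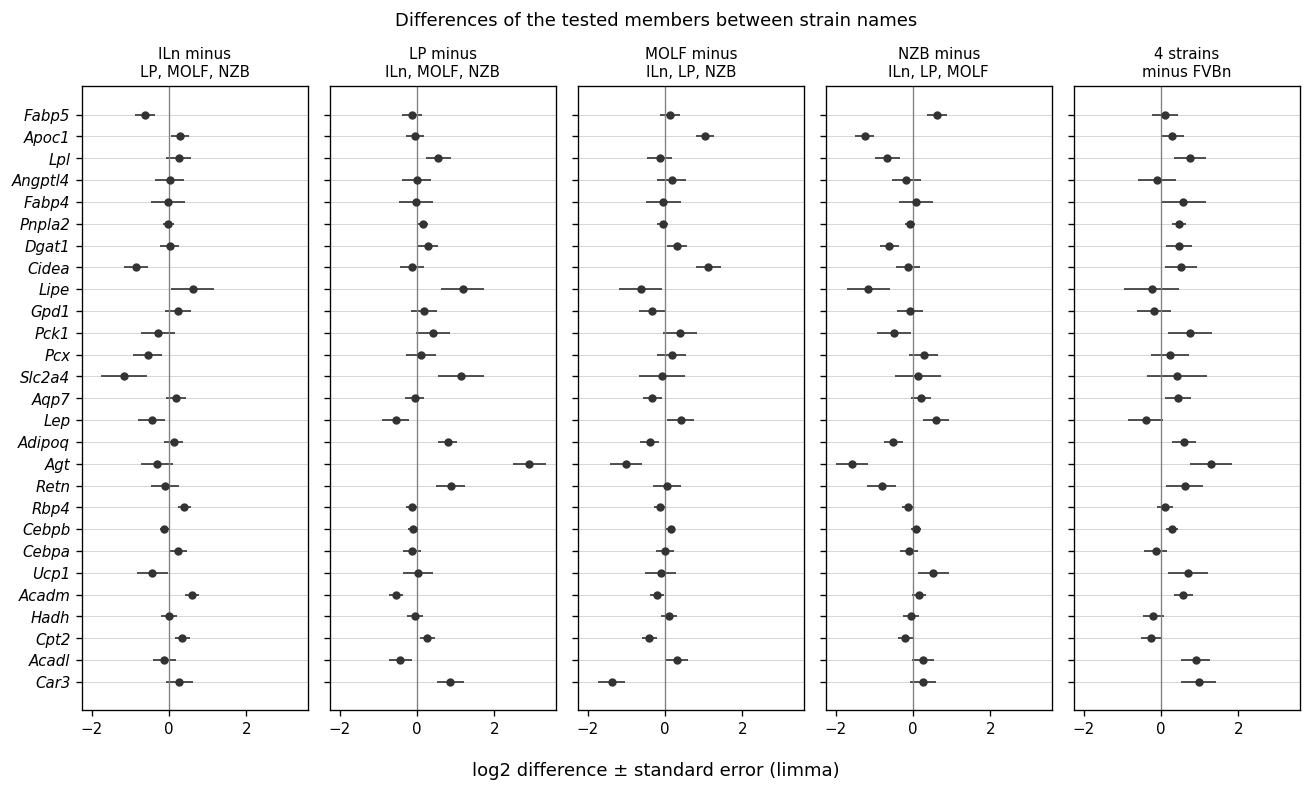
Log2 difference (x axis, points with standard errors from limma) of the 27 tested genes (rows) in the 5 comparisons between strain names (panels). Agt in LP, at 2.90, lies farthest from 0, and no point passed the adjusted threshold of 0.05.

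The spread between arrays of 1 strain was uneven. Of the 27 genes, 9 differed by over 1 log2 unit between MOLF A and MOLF B (33.3%, against 19% of all tested genes) and 5 between NZB A and NZB B (18.5%, against 21.3%). In ILn and LP 0 of 27 did so (1.99% and 4.16% of all). Lipe and Slc2a4 were on both lists, and for Lipe the low array was MOLF A or NZB B, while for Slc2a4 those arrays were the high ones.

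On the array with no strain name, most of the adipocyte genes were brighter than on any of the 9 tumour arrays with a strain name. It is a single array. Its tissue, strain, sex and age labels match the others, but its title carries the tag 12Wcombexp, which is not explained, and lacks the word mix. The labels put it in no group, so its values are given without a test, and its title date is its own, so date and sample cannot be told apart. Of the 29 genes, 25 lay above all 9 arrays, 21 of them by over 1 log2 unit and 13 by over 2. Among probe sets, 27 of 41 lay over 1 unit above all 9 (65.9%), against 3.54% of all probe sets, and 1 of 41 lay over 1 unit below, against 1.46%. The median gene of the list stood 1.91 above its mean over the 9 arrays, while the median of all tested genes stood at −0.09.

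Of the 5 secreted factors measured, Adipoq, Retn and Rbp4 lay above the strain arrays, as did all 4 genes of triglyceride storage and breakdown. Adipoq read 12.43, at least 16.4-fold above each strain array, and Retn read 10.82, where LP A had the highest strain value of 6.11. Lpl read 11.63 (highest strain value 7.57), Lipe 10.48 (7.25), Cidea 10.53 (8.04) and Pnpla2 11.80 (10.62). The dim Rbp4 read 9.98. Pparg and Cd36, at the floor on all 9, read 7.40 and 7.19 there, 6.27-fold and 5.43-fold above the floor. These folds are lower bounds on the distance from the strain arrays. The other Cd36 probe set stayed at the floor there. Cidec, a droplet protein of mature fat cells that was also at the floor on all 9 arrays, read 9.48.
All 5 glucose and glycerol genes were above the strain arrays: Gpd1 at 11.67, Pck1 at 9.49, Slc2a4 at 9.22, Pcx at 7.53 and Aqp7 at 7.16. The second probe set of Slc2a4 was at the floor, whereas that of Pcx read 9.32 (at most 6.06 on strain arrays) and its 3' control probe set 10.46. The 5' control probe set of Pcx read only 7.52, against at most 7.15 on strain arrays. Its control probe sets MA and MB read 8.69 (at most 6.98) and 9.255 (at most 6.70). All 4 oxidation genes were above the strain arrays as well: Acadm at 10.33, Hadh at 9.92, Cpt2 at 9.90 and Acadl at 8.38. Ucp1 read 7.28 by its main probe set and 9.46 by the other, where the strain arrays reached 5.75.

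Exceptions were few. Cebpb read 9.45, below the lowest strain value of 10.58, whereas Cebpa read 11.43, above the highest of 10.19. Agt was at the floor. Fabp5 (9.01) and Lep (9.42) lay inside the strain range, but the second probe set of Lep read 9.30, against at most 5.95 on the strain arrays. Of the probe sets of Angptl4, 2 read above the strain arrays (9.62 and 8.56), 1 below (6.22) and 1 at the floor. Dgat1 read 9.06 by its main probe set and lay at the floor by the other. Just inside the margin of 1 log2 unit were Pcx (1.02) and Hadh and Ucp1 (both 1.10), and just outside it were Dgat1 (0.99) and Fabp4 (0.96). Scaled by the deposited trimmed mean instead, the main probe sets of Ucp1 (0.72) and Pcx (0.67) were short of the margin, while their second probe sets lay 3.86 and 2.90 above the strain arrays, and Lep lay 0.10 above the strain range.

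**Figure D4:**
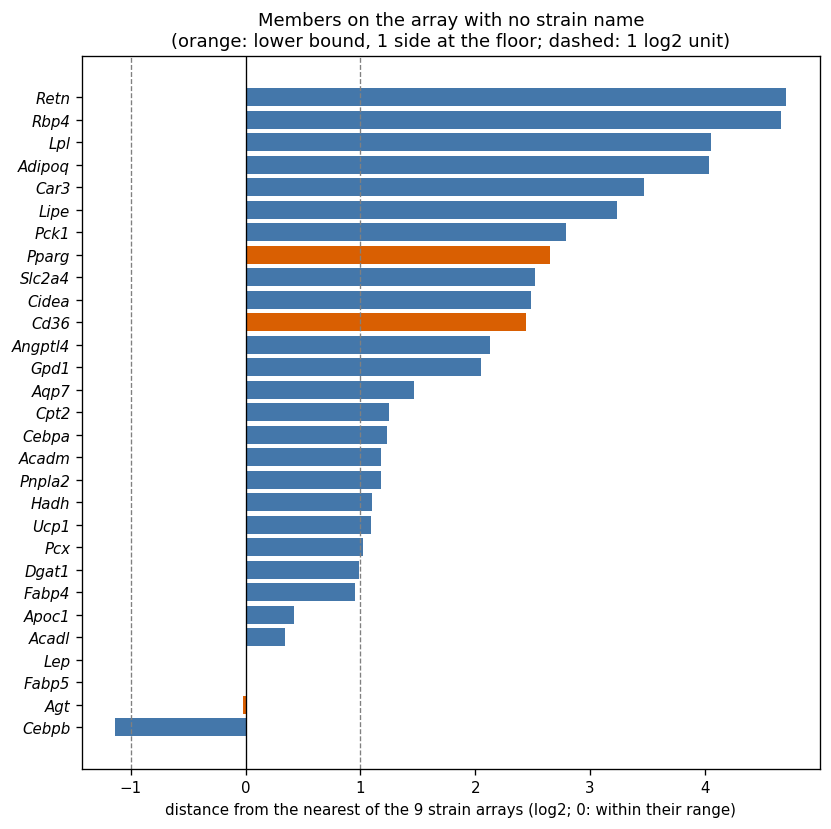
Distance in log2 units (x axis) of the array with no strain name from the nearest of the 9 strain arrays for the 29 measured genes (bars), with 0 for a value inside their range, dashed lines at 1 unit, and orange bars where 1 side was at the floor. Bars of Retn, Rbp4, Lpl and Adipoq exceed 4 units, and Cebpb points to −1.13.

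Other genes of these pathways are counted apart from the 29. The background for each count is the share over all probe sets (3.54%), dim ones included, whereas each gene is counted by 1 probe set. A share over genes is not given. Of 30 other adipocyte genes measured, 19 lay over 1 log2 unit above all 9 strain arrays on that array. Among them were the droplet protein Plin4 (9.78, at most 5.54 on strain arrays) and the amine oxidase Aoc3 (10.26, at most 6.63). The caveolar protein Cav1 (10.84, at most 7.92) was another. Lipa (7.39) and Cebpd (8.46) lay below all 9 strain arrays, and Insr, Irs1, Vldlr and Dlk1 were not above the strain range. Of 20 other oxidation genes 6 lay over 1 unit above the strain arrays, with Decr1 (8.48) and Hadhb (11.13) the farthest and 7 of the 20 not above the strain range. Of 9 brown fat genes 5 did so, namely Ucp1 and Cidea of the main list, Cox7a1, Cox8b and Fabp3. Muscle markers were also higher on that array, and the part of muscle RNA in the values of Cox7a1, Cox8b and Fabp3 was not tested. Elovl3, Ppargc1a and Slc27a2 lay at the floor there, and Dio2 (6.36) lay inside the strain range. Across strain names, 0 of 26 tested adipocyte genes, 0 of 17 oxidation genes and 0 of 6 brown fat genes passed in any of the 5 comparisons in limma.
Markers of other cell types also differed on that array. Skeletal muscle markers lay over 1 unit above the strain arrays for 12 of 15 genes (list mean 2.90), endothelial markers for 5 of 8 (1.79) and fibroblast markers for 4 of 9 (1.31). Epithelial markers lay lower, with a list mean of −0.82 and 2 of 11 over 1 unit below, and macrophage markers were level at −0.04. The mean of the 29 adipocyte genes was 2.34 there and −0.29 to 0.23 on the strain arrays. The part of muscle RNA in the genes that muscle shares was not tested.

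**Figure D5:**
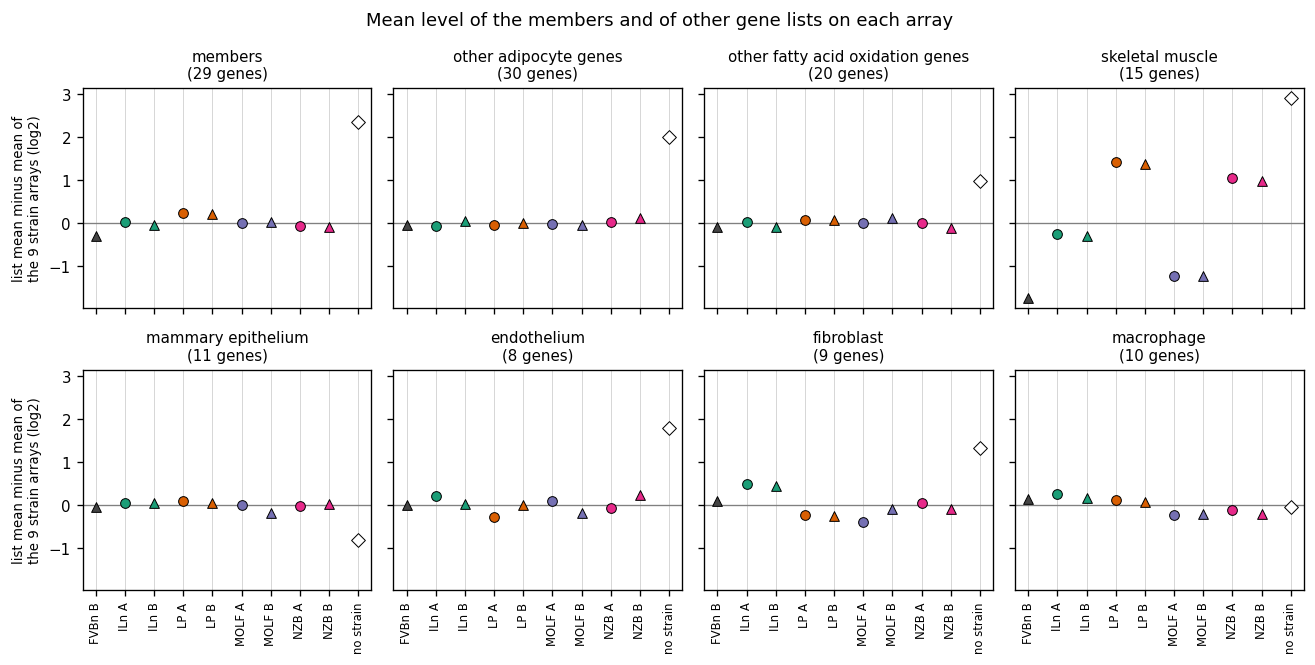
Mean log2 level of 8 gene lists on each array (x axis), relative to the mean of the 9 strain arrays (y axis), with circles for arrays A, triangles for arrays B and an open diamond for the array with no strain name. The adipocyte genes (panel of members) span −0.29 to 0.23 on the strain arrays and stand at 2.34 on the array with no strain name, while muscle markers also vary between strains, from −1.74 to 1.41.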

How the data were processed

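Total RNA of 10 mouse mammary tumour samples was hybridised to mg_u74av2 arrays. The deposited values are linear intensity, 1 per probe set and array; the sources used here do not name the method of probe summary. A trimmed mean (2% off each end) was 150.1 on 9 arrays and 500.2 on ILn A. The 9 strain arrays were quantile normalized without the 66 controls in R 4.3.3 with limma 3.58.1, a floor was put at the 30th percentile (26.98), and values were converted to log2. Afterwards the array without a strain received the same distribution. Probe sets above the floor in at least 2 of 9 arrays (9899 of 12422) were fitted with a mean per strain name (lmFit, eBayes with an intensity trend, 4 residual degrees of freedom), and p-values were adjusted by Benjamini-Hochberg. All groups shared 1 spread per probe set. The code was tested on simulated data.

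Symbols came from the platform annotation (1 symbol for 10855 probe sets, several for 396, none for 1237) and were brought up to date by Entrez identifier (10839 matches in RefSeq). Every member was described by its tested probe set with the highest mean. Pparg and Cd36 had none tested and were described by the highest of all their probe sets. The main other probe sets are mentioned where their values differ. From the other lists, genes past the test, or those the results turn on, are named; those named on the array with no strain name were chosen after their values were seen, as were the printed promoters. The members and lists were chosen with earlier results of these data known. Title dates (4 batches) were tried as a block, and the array letter as a replicate block. Precision is limited by the number of arrays.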

Additional observations from a re-analysis of the deposited data

Results flagged for a closer look

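The array with no strain name entered no comparison. On it, 22 of the 29 measured genes lay over 1 log2 unit outside the range of the 9 strain arrays, 21 above and Cebpb below. Its distance from the nearest strain array was 4.71 for Retn, 4.66 for Rbp4, 4.05 for Lpl and 4.03 for Adipoq. For Car3 it was 3.47, for Lipe 3.24, for Pck1 2.79, for Slc2a4 2.52, for Cidea 2.48, for Angptl4 2.13 and for Gpd1 2.05. Pparg and Cd36 were at the floor on the strain arrays, so that their distances of 2.65 and 2.44 are lower bounds. Smaller distances were 1.47 for Aqp7, 1.25 for Cpt2, 1.23 for Cebpa, 1.18 for Acadm and Pnpla2, 1.10 for Hadh and Ucp1 and 1.02 for Pcx. Cebpb differed by −1.13. These are values of a single array with no group in the labels, and no test was made.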

How the results depend on the processing

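No member passed the test in any comparison under any alternative, apart from Agt in LP with the stricter filter (above the floor in 5 arrays), which made the count 1, and without MOLF B, so that it ran from 0 to 1 over the arrays left out. Over all probe sets the counts of calls moved more. With median centring instead of quantile normalization there were 36 for the F test, 9 for LP, 23 for MOLF and 4 for NZB. The title date as a block gave 18 for the F test, 13 for ILn, 0 for LP, 6 for MOLF, 0 for NZB and 10 against FVBn. No filter gave 21 for NZB and 102 against FVBn, and the stricter filter 17 for NZB. Without an intensity trend the F test gave 48 and NZB 4. Without MOLF A and NZB B, LP gave 1 and NZB 22. Leaving out each array in turn gave 1 to 49 for the F test, 6 to 32 for ILn, 0 to 16 for LP, 3 to 19 for MOLF, 0 to 36 for NZB and 15 to 31 against FVBn, whose single array was not left out.

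The array letter as a replicate block gave 31 calls for the F test, 9 for LP, 26 for MOLF and 20 against FVBn, and 0 members. The letters did not pair the arrays: deviations from the strain means correlated at −0.71 (MOLF and NZB) to 0.13 (LP and MOLF).

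The median over members was 0.081 for ILn, 0.12 for LP and −0.18 for NZB with median centring, 0.0915 for LP and 0.32 against FVBn with the title date, −0.14 for MOLF and 0.30 against FVBn with a floor at the 10th percentile, and 0.13 for LP, −0.13 for MOLF and 0.35 against FVBn without MOLF A and NZB B. Leaving out arrays moved it from −0.10 to 0.12 for ILn, −0.0163 to 0.15 for LP, −0.13 to 0.0207 for MOLF, −0.13 to −0.07 for NZB and 0.39 to 0.50 against FVBn. For Agt in LP the difference ran from 2.66 to 3.15 over the arrays left out. Of the members on the array with no strain name, 22 lay over 1 log2 unit above the strain arrays with median centring and 19 with trimmed mean scaling, both tried after seeing the data. The cause of these shifts was not tested.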
